A study of Mus musculus with 2 samples.

Results

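The genes of the cytosolic ribosomal proteins were taken from the deposited tables by symbol, as Rpl or Rps followed by a number (with an a, x, y or l ending where present), together with Rplp0, Rplp1, Rplp2 and Rpsa, and without the kinases that phosphorylate them. This gave 84 of 25791 genes, 51 of the large and 33 of the small ribosomal subunit. Of these, 77 (46 large and 31 small) were core ribosomal proteins, and 7 were paralogues or pseudogenes with a -like name. RNA came from fetal mouse thymic epithelial cells at 15 dpc (days post coitum), sorted for EpCAM, an epithelial adhesion molecule, and against CD45, the pan-leukocyte antigen, and PDGFRa, a mesenchymal receptor. The library titled humanCD3eTg came from mice of a mixed C57BL/6J x CBA/J background and the library titled B6J from C57BL/6 mice, with 1 library each. What drives the transgene, how many copies were inserted, which line was used and how many embryos were pooled is not given in the sources used here.

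Thymocytes and thymic epithelium depend on each other in development, and multicopy human CD3E transgenes are known to block T cell development. The treatment labels state the opposite, presence of thymocytes for humanCD3eTg and absence for B6J, so the libraries are named by their titles. The levels go the same way as the titles: all 9 thymocyte markers used, of 10 listed, were at least 2-fold lower in humanCD3eTg, and Cd3d, Cd3g and Rag2 were listed at 0 there. The 10 summed to 6.14 FPKM in humanCD3eTg and 144 FPKM in B6J. The 8 pan-haematopoietic and 8 endothelial markers were also all at least 2-fold lower in humanCD3eTg, summing to 9.95 and 8.91 FPKM there, against 82.7 and 51.8 FPKM in B6J. In contrast, 8 markers of neural crest and pigment cells were all at least 2-fold higher, summing to 167 FPKM in humanCD3eTg and 9.76 FPKM in B6J. The erythroid markers summed to 1584 FPKM in humanCD3eTg and 2610 FPKM in B6J. All 10 thymic epithelial markers were detected, 3 higher and 7 lower in humanCD3eTg (median log2 ratio -0.22). Among them, Foxn1, the master regulator of these cells, had 43.7 FPKM in humanCD3eTg and 91.1 FPKM in B6J, and Krt5, a basal keratin, had 955 FPKM in humanCD3eTg and 280 FPKM in B6J. The part of these cell types in the ribosomal protein levels was not tested. Transgene, strain background and thymocytes cannot be told apart, nor can fewer cells of a type and less RNA per cell. No test and no replicate error was possible with 1 library per group, so no difference below can be set against a spread between mice.

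A ribosome is built from a small subunit, which reads the mRNA, and a large subunit, which joins the amino acids and passes the new chain out through a tunnel. Most cytosolic ribosomal proteins are present once in each particle, while the stalk proteins Rplp1 and Rplp2 are present in more than 1 copy, and surplus free proteins are degraded. The mRNAs of these proteins carry a run of pyrimidines at their start, the terminal oligopyrimidine (TOP) motif, through which the MTOR kinase regulates their translation together with that of elongation factors. In dividing tissue they are among the most abundant mRNAs of a cell.

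The 84 genes held 14.9% of the summed FPKM (fragments mapped to a gene, scaled to its transcript length and to the library) in humanCD3eTg, against 14.2% in B6J. The large subunit held 8.19% in humanCD3eTg and 7.71% in B6J, and the small subunit 6.73% in humanCD3eTg and 6.47% in B6J. Of the 77 core genes, 67 were among the 200 highest genes in humanCD3eTg and 66 in B6J. The median core FPKM of the large subunit was 1152 in humanCD3eTg and 1050 in B6J. For the small subunit it was 1530 in humanCD3eTg and 1522 in B6J. Both of these values are those of Rps18, so they show the difference of that gene and not the typical difference of the subunit's genes, given below.

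The mRNA levels per length spanned a wide range. The highest core gene of the large subunit was 23.2-fold above the lowest in humanCD3eTg and 27.4-fold in B6J, and of the small subunit 41.4-fold in humanCD3eTg and 44.9-fold in B6J. Rps28, a protein at the exit of the mRNA channel, was the highest, with 3468 FPKM in humanCD3eTg and 3446 FPKM in B6J. Rpl41, a very short peptide between the subunits, followed with 3119 FPKM in humanCD3eTg and 3032 FPKM in B6J. At the other end stood 4 core genes under 200 FPKM in both libraries. Rps15a, a protein of the small subunit body, had 83.8 FPKM in humanCD3eTg and 76.8 FPKM in B6J. Rpl21 had 134 FPKM in humanCD3eTg and 110 FPKM in B6J, and Rpl15 had 162 FPKM in humanCD3eTg and 142 FPKM in B6J. Rpl22, an RNA-binding protein that mouse T cell development requires, was the fourth, with 186 FPKM in humanCD3eTg and 162 FPKM in B6J. Genes that share sequence with a ribosomal protein gene, described below, are left out of the levels and ranges here. With 9 such genes added, Rpl21 summed to 1463 FPKM in humanCD3eTg and 1249 FPKM in B6J. With 3 added, Rpl15 summed to 1008 FPKM in humanCD3eTg and 897 FPKM in B6J. The order of the core genes was nearly the same in both libraries (Spearman rho 0.992 across 77 genes, which share each library's depth and the same gene models and are not replicates).

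**Figure D1:**
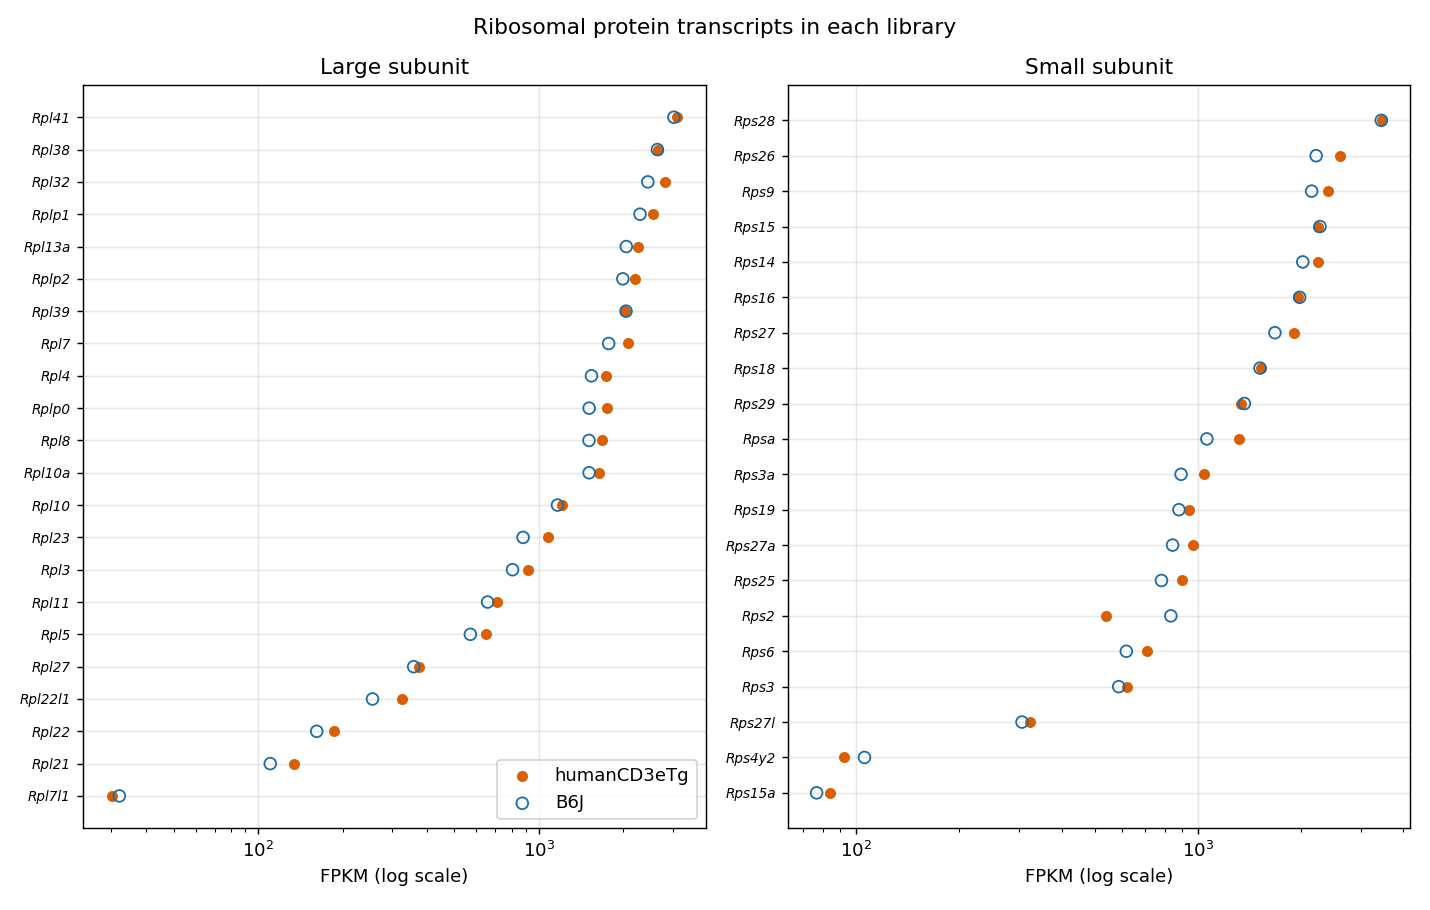
FPKM (log axis) of ribosomal protein genes chosen by level, ratio or role that reached a mean of 1 FPKM, ordered by level within the large and the small subunit, with a filled point for humanCD3eTg and an open circle for B6J. The points of a gene lie close together while the genes span a wide range; Rps2, with 538 FPKM in humanCD3eTg and 835 FPKM in B6J, is the widest-spaced pair.

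Between the libraries, nearly all ribosomal protein genes were slightly higher in humanCD3eTg. The difference of each gene was taken as the log2 ratio of humanCD3eTg over B6J on FPKM + 1, for the 13493 genes whose mean over both libraries reached 1 FPKM. In the large subunit, 46 of the 48 genes used were higher and 2 lower, where 44.6% of all genes used were higher and 55.4% lower. In the small subunit 28 of 33 were higher and 5 lower. Among the 904 other genes of at least 100 FPKM, a level nearer to that of the ribosomal genes, 65.4% were higher. Copies that share sequence with ribosomal protein genes, described below, were not removed from these 904, so the 2 sets are not fully separate. The median log2 ratio was 0.15 for the large and 0.12 for the small subunit, a difference of 0.0267, beside -0.05 for all genes used and 0.09 for those other high genes. No ribosomal protein gene used was 2-fold apart, where 6.57% of all genes were (2.1% higher and 4.47% lower in humanCD3eTg), and 1, Rps2, was 1.5-fold apart, where 16.9% were. Within 0.35 of 0 on the log2 scale lay 79 of 81 genes, where 65.3% of all genes did. The number of higher genes in the small subunit depended on the scaling: 24 after quantile normalization, which raised the share of higher genes over all genes to 52.5%, and 31 after centring on the median gene.

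**Figure D2:**
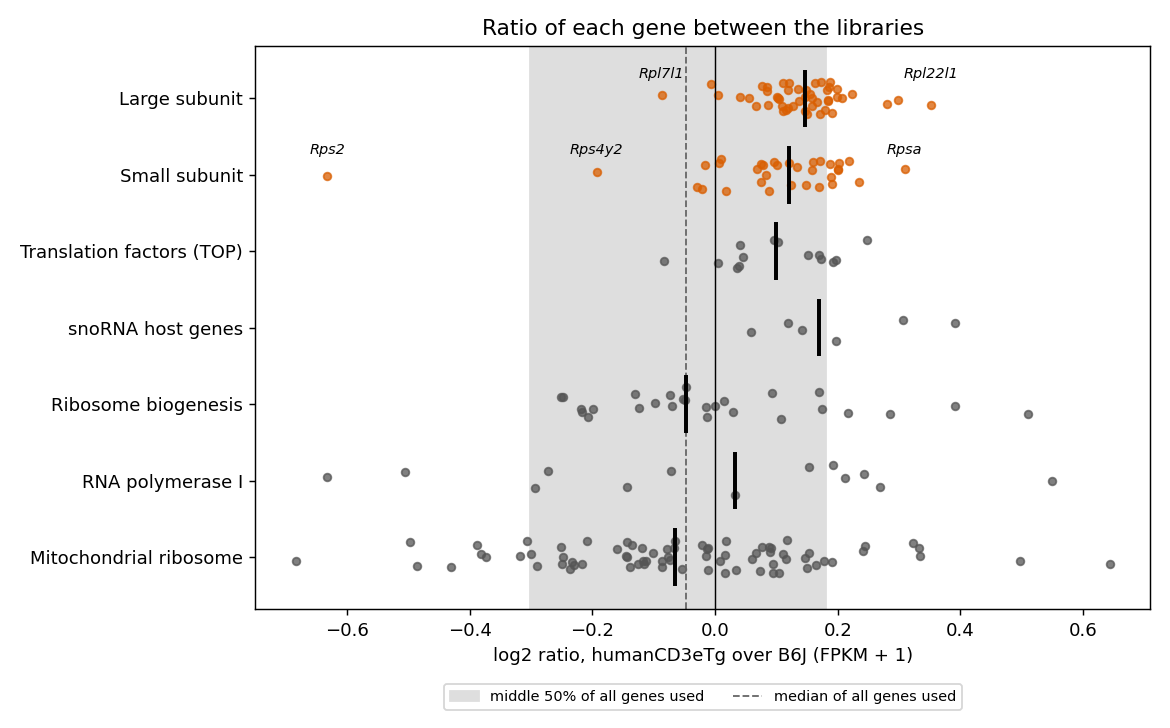
Log2 ratio of humanCD3eTg over B6J (FPKM + 1) for each used gene of the large subunit, the small subunit and 5 comparison lists, 1 point per gene, with list medians as black bars and the middle 50% and median of all genes used as a grey band and dashed line. The large subunit ranges from -0.09 to 0.35 and the small subunit from -0.63 (Rps2) to 0.31 (Rpsa), while mitochondrial ribosomal proteins scatter from -0.68 to 0.64.

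Within the large subunit, where 46 of the 48 genes used were higher in humanCD3eTg, the functional sites were higher by similar small amounts. The P stalk, the flexible arm that recruits translation factors, was higher at all 4 of its genes. Its anchor Rplp0 had 1745 FPKM in humanCD3eTg and 1512 FPKM in B6J (log2 ratio 0.21). The stalk proteins Rplp1 (2561 FPKM in humanCD3eTg, 2296 in B6J) and Rplp2 (2210 in humanCD3eTg, 1994 in B6J) had log2 ratios of 0.16 and 0.15. Rpl5 and Rpl11, which carry the small ribosomal RNA of the large subunit and bind the p53 regulator Mdm2 when ribosome assembly is disturbed, were close to each other in level and ratio. Rpl5 had 648 FPKM in humanCD3eTg and 571 FPKM in B6J (0.18), and Rpl11 had 712 FPKM in humanCD3eTg and 657 FPKM in B6J (0.12).

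Around the peptidyl transferase centre, where peptide bonds form, Rpl3 had 918 FPKM in humanCD3eTg and 807 FPKM in B6J (0.19). Rpl8 had 1685 FPKM in humanCD3eTg and 1510 FPKM in B6J (0.16). Rpl10, the last of the 3 and a protein added late in assembly, was nearly level, with 1212 FPKM in humanCD3eTg and 1166 FPKM in B6J (0.06). Along the exit tunnel, 8 of 9 genes were higher in humanCD3eTg, with a median of 0.12, against 0.15 for the whole large subunit. The exception was Rpl39, a short protein that lines the tunnel, with 2038 FPKM in humanCD3eTg and 2046 FPKM in B6J. Rpl4, which reaches into the tunnel wall, had 1735 FPKM in humanCD3eTg and 1542 FPKM in B6J (0.17).

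The largest ratio of a core gene in the large subunit was that of Rpl23, a protein at the interface of the subunits, with 1081 FPKM in humanCD3eTg and 879 FPKM in B6J (0.30). After it came Rpl21 (0.28), by its own FPKM also the lowest core gene of the large subunit. Next was Rpl7, with 2072 FPKM in humanCD3eTg and 1775 FPKM in B6J (0.22). Rpl32 had 2808 FPKM in humanCD3eTg and 2448 FPKM in B6J (0.20). Near 0 lay Rpl38, known from mouse mutants with skeletal patterning defects, with 2655 FPKM in humanCD3eTg and 2647 FPKM in B6J. Rpl27 was also little apart, with 375 FPKM in humanCD3eTg and 358 FPKM in B6J (0.07). Abundant genes in between were Rpl10a, with 1643 FPKM in humanCD3eTg and 1512 FPKM in B6J (0.12), and Rpl13a, with 2254 FPKM in humanCD3eTg and 2051 FPKM in B6J (0.14).

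The standard deviation of the log2 ratios across genes was 0.162 in the small subunit, against 0.0746 in the large subunit and 0.760 over all genes used. Without Rps2, described below, it was 0.0992 in the small subunit. The platform, which holds the mRNA near its exit, had the highest median, 0.22, with all 5 genes higher in humanCD3eTg. In the whole small subunit 28 of 33 genes were higher, with a median of 0.12. Rpsa, the laminin-receptor protein whose human gene is mutated in congenital absence of the spleen, had 1319 FPKM in humanCD3eTg and 1064 FPKM in B6J (0.31), the highest ratio of the subunit. Rps26, which contacts the mRNA upstream of the start codon, had 2614 FPKM in humanCD3eTg and 2222 FPKM in B6J (0.23). Rps3a had 1041 FPKM in humanCD3eTg and 894 FPKM in B6J (0.22). The platform proteins Rps27 (1920 FPKM in humanCD3eTg, 1683 in B6J) and Rps14 (2251 in humanCD3eTg, 2030 in B6J) had ratios of 0.19 and 0.15.

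The head, which swivels as the mRNA is moved along, had a median of 0.08 over 14 genes, of which 11 were higher and 3 lower in humanCD3eTg. The 3 lower ones were close to 0. Rps29, a short zinc-binding protein, had 1343 FPKM in humanCD3eTg and 1370 FPKM in B6J (-0.03). Rps16 had 1960 FPKM in humanCD3eTg and 1988 FPKM in B6J, and Rps15, a protein of the decoding region, had 2253 FPKM in humanCD3eTg and 2280 FPKM in B6J (-0.02 each). These 3 genes and Rpl39 turned higher on centring the median gene, so their direction depends on the scaling. Rps27a, made as a fusion with ubiquitin, had 971 FPKM in humanCD3eTg and 845 FPKM in B6J (0.20). Rps25, needed by some viral RNAs to start translation, had 902 FPKM in humanCD3eTg and 784 FPKM in B6J (0.20). Rps3, at the mRNA entry, had 622 FPKM in humanCD3eTg and 588 FPKM in B6J (0.08).

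In the body, 11 of 12 genes were higher in humanCD3eTg, with a median of 0.15, beside 28 of 33 in the whole small subunit. Rps6, the protein phosphorylated by S6 kinases, had 711 FPKM in humanCD3eTg and 618 FPKM in B6J (0.20). Rps9, an early-assembling protein, had 2407 FPKM in humanCD3eTg and 2155 FPKM in B6J (0.16). Of 19 genes mutated in human Diamond-Blackfan anaemia, an inherited failure of red cell production, 18 were higher in humanCD3eTg, with a median of 0.13. All 81 ribosomal protein genes used had the same median of 0.13, with 91.4% higher. The first Diamond-Blackfan gene to be found in patients, Rps19, had 942 FPKM in humanCD3eTg and 882 FPKM in B6J (0.10).

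Rps2, a protein at the mRNA entry of the small subunit, stood apart from every other member. It had 538 FPKM in humanCD3eTg and 835 FPKM in B6J, a log2 ratio of -0.63. Much of its mRNA is not unique to it by GENCODE M21 (build GRCm38, a later build than the mm9 of the deposited values). Of the 50-base windows of its transcript with the longest coding sequence, 76.8% also occur, on either strand, in a transcript of another gene. Of these genes, 5 processed pseudogenes, which are copies of the mRNA inserted elsewhere in the genome, share at least 100 windows with Rps2 and are listed in the tables. Fragments from shared stretches can be assigned to the gene or to a copy, so the value of Rps2 is uncertain. The same 60 bases of the coding sequence, positions 181 to 240, are shown for each. Positions count from 1 at the A of the start codon of the longest annotated coding transcript. Of the windows tried in which every copy stayed close to Rps2, this one holds the most differences, so it is not a typical stretch. Capitals mark bases that differ from Rps2.
Rps2: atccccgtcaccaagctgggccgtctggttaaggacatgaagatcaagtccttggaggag
Gm6139: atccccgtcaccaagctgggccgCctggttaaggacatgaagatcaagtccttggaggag
Gm5921: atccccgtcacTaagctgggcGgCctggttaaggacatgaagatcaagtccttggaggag
Gm10653: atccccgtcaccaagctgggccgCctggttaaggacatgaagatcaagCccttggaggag
Gm8225: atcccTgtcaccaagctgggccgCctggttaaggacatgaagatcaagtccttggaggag
Gm5786: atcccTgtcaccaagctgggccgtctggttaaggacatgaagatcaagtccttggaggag
Rps2 lies on chromosome 17 (24718116 to 24721929, plus strand). Gm6139 lies on chromosome 5 (129622990 to 129623871, minus strand), Gm8225 on chromosome 17 and Gm5786 on chromosome 12. Gm5921 and Gm10653 both lie on chromosome 9.

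Each of the 5 copies was higher in humanCD3eTg, the opposite direction to Rps2. Gm6139, which differs from Rps2 in this window by T204C only, had 501 FPKM in humanCD3eTg and 312 FPKM in B6J (0.69). Gm5786, with C186T only, had 367 FPKM in humanCD3eTg and 310 FPKM in B6J (0.24). Gm5921 had 272 FPKM in humanCD3eTg and 210 FPKM in B6J (0.37). Gm8225 had 178 FPKM in humanCD3eTg and 148 FPKM in B6J (0.27), and Gm10653 had 64.4 FPKM in humanCD3eTg and 51.5 FPKM in B6J (0.32). Rps2 and its copies summed to 1922 FPKM in humanCD3eTg and 1866 FPKM in B6J, a log2 ratio of 0.04, which lies within the range of the other small-subunit genes.

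Rps18, a protein of the small subunit head, showed the reverse case. It was level, with 1530 FPKM in humanCD3eTg and 1522 FPKM in B6J (0.01), but Gm10260, which shares 290 windows with it, had 1954 FPKM in humanCD3eTg and 887 FPKM in B6J (1.14). Gm10260 lies on chromosome 13 (97760072 to 97760632, minus strand), and GENCODE M21 annotates it as protein coding. In the 60 coding bases from position 331 to 390, a window chosen in the same way, the copy differs by A337C and G371A, shown in capitals.
Rps18: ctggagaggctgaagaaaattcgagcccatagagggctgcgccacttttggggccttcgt
Gm10260: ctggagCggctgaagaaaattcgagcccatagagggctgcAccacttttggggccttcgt
The sum of Rps18 and Gm10260 was 3484 FPKM in humanCD3eTg and 2409 FPKM in B6J, a log2 ratio of 0.53. A further gene with less shared sequence, Gm6436 (56 windows), went the other way, with 18.1 FPKM in humanCD3eTg and 158 FPKM in B6J (-3.06); it is not in this sum.

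For genes that share at least 100 windows, most copies had a ratio close to that of their gene. Sharing was widespread, with a median of 60% of windows per core gene, and more than 50% in 48 of 77. In all, 85 genes shared at least 100 windows with one of 37 ribosomal protein genes and were used. The ratio of 71 of them lay within 0.1 of that of the ribosomal protein gene, with a median difference of -0.0074. Fragments from the shared windows can count toward either gene, so the 2 ratios are not independent and their closeness bears out neither. Only 8 lay more than 0.5 away: the 5 copies of Rps2, Gm10260, and a pair of low genes of other function, Tlcd1 (7.37 FPKM in humanCD3eTg, 10.2 in B6J), which shares sequence with Rpl23a, and Fam69a (1.79 in humanCD3eTg, 7.70 in B6J), which shares sequence with Rpl5. Each gene was also summed with the genes that share its windows, some of them of other function. Of these sums, 36 of 37 log2 ratios were above 0 and their median was 0.15. Each sum contains the ribosomal protein gene itself. Of the 81 ribosomal protein genes used 91.4% were higher, and of all genes used 44.6%. Apart from Rps2 and Rps18, summing moved no gene by more than 0.0519.

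**Figure D3:**
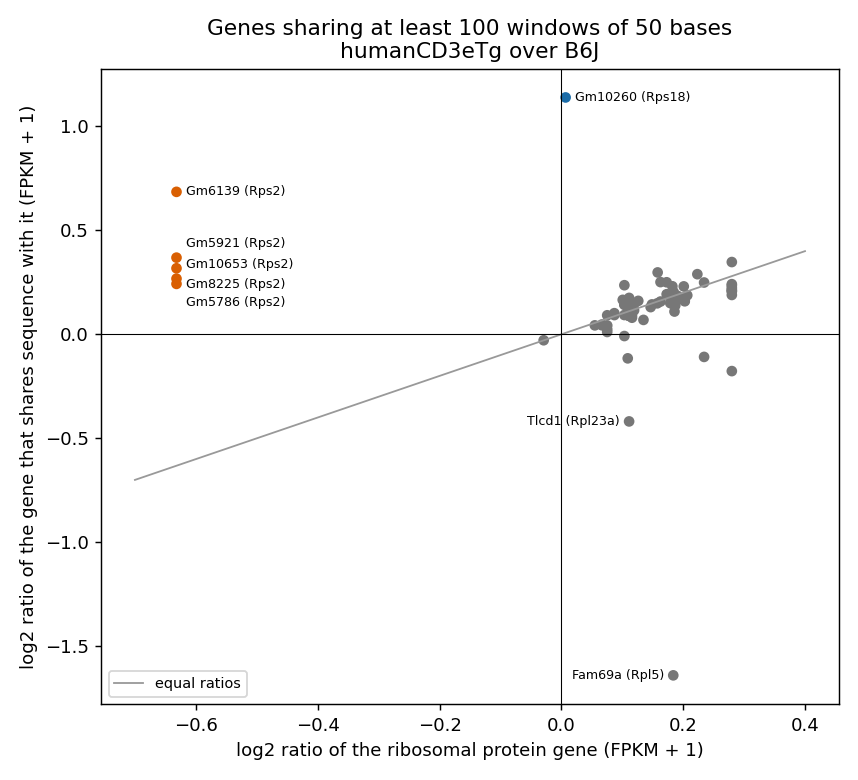
Log2 ratio of humanCD3eTg over B6J (FPKM + 1) of each of the 85 genes that share at least 100 windows of 50 bases with a ribosomal protein gene (vertical axis), against the ratio of that ribosomal protein gene (horizontal axis), with the line of equal ratios. Most points lie on the line near 0.15, while the 5 copies of Rps2 lie between 0.24 and 0.69 at an Rps2 ratio of -0.63, and Gm10260 lies at 1.14.

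On the deposited scale the genes of the shortest proteins were the least apart between the libraries, but this did not hold after quantile normalization. Length here is that of the longest annotated coding sequence of a gene, which can exceed the length of its main protein. The 9 core genes of up to 100 residues had a median log2 ratio of 0.02, against 0.15 for the 45 of 100 to 200 residues and 0.16 for the 23 of 200 to 500 residues. Of these 9, those below 0.05 in size were Rpl41 with 46 residues, Rpl39 with 51, Rps29 with 56, Rps28 with 69, Rpl38 with 70 and Rps21 with 83. Rps21 was singled out after its values were seen and had 1991 FPKM in humanCD3eTg and 1965 FPKM in B6J. The highest of the 9 was Rps27, with 84 residues and a ratio of 0.19. Other genes of at least 100 FPKM, from which copies were not removed, gave a median of 0.03 for 48 genes of up to 100 residues. Their medians were 0.10 for 153 genes of 100 to 200 residues and 0.06 for those of 200 to 500 residues. Across core genes the rank correlation of ratio with protein length was 0.27 in the large (46 genes) and 0.22 in the small subunit (31 genes), values given as a description, since the genes share both libraries. After quantile normalization the medians by length were 0.08 (up to 100 residues), 0.07 and 0.09, and Rps28 had 0.20, Rpl41 0.13, Rpl39 -0.09 and Rps29 -0.07. The other scalings kept the shortest genes below the longer ones, with a median of 0.07 against 0.19 and 0.21 after median centring and of -0.03 against 0.10 and 0.11 after equal-sum scaling. Length enters FPKM directly, and its part in the pattern was not tested. Rpl41, Rpl38, Rps28, Rps18 and Rps21 turned lower in humanCD3eTg when both libraries were scaled to an equal sum.

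**Figure D4:**
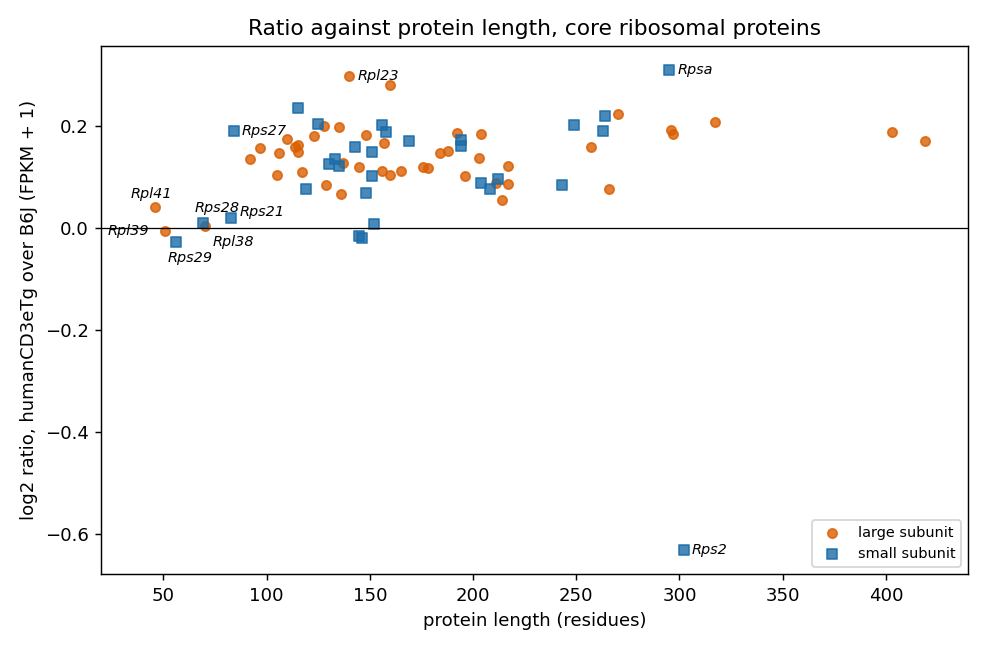
Log2 ratio of humanCD3eTg over B6J (FPKM + 1) of each core gene against protein length, for the large and the small subunit. Length is in residues of the longest annotated coding sequence (GENCODE M21), which can exceed the main protein. The 6 shortest genes lie between -0.03 and 0.04, longer genes mostly between 0.05 and 0.31, and Rps2 lies at -0.63, all on the deposited scale; after quantile normalization the medians of short and long genes were 0.08 and 0.09.

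The genes with -like names covered a wide range of levels. Rpl22l1, the paralogue of Rpl22, was the more abundant of that pair, with 327 FPKM in humanCD3eTg and 256 FPKM in B6J. It made up 63.7% of the pair in humanCD3eTg and 61.2% in B6J, and its log2 ratio of 0.35 was the highest of all 81 genes used, where Rpl22 had 0.20. Rps27l, known as a p53 target, had 323 FPKM in humanCD3eTg and 306 FPKM in B6J, which was 14.4% of its pair with Rps27 in humanCD3eTg and 15.4% in B6J. Rps4y2, which RefSeq now lists as the transcribed pseudogene Rps4l, was lower in humanCD3eTg, with 92.6 FPKM there and 106 FPKM in B6J (-0.19). Beside it, Rps4x, the gene that encodes the protein, had 2083 FPKM in humanCD3eTg and 1827 FPKM in B6J (0.19). Rpl7l1 had 30.1 FPKM in humanCD3eTg and 32.03 FPKM in B6J (-0.09). Rpl36al, which the symbol rule does not reach, made up 26.3% of its pair with Rpl36a in humanCD3eTg and 29.5% in B6J.

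The remaining 3 were very low and did not reach a mean of 1 FPKM. Rpl3l, the paralogue of heart and skeletal muscle, was listed at 0 in humanCD3eTg and had 0.319 FPKM in B6J. Rpl10l and Rpl39l, both known from male germ cells, were listed at 0 in humanCD3eTg and had 0.244 and 0.748 FPKM in B6J. No ribosomal protein gene was listed at 0 in B6J, the deeper library by about 1.27-fold.

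**Figure D5:**
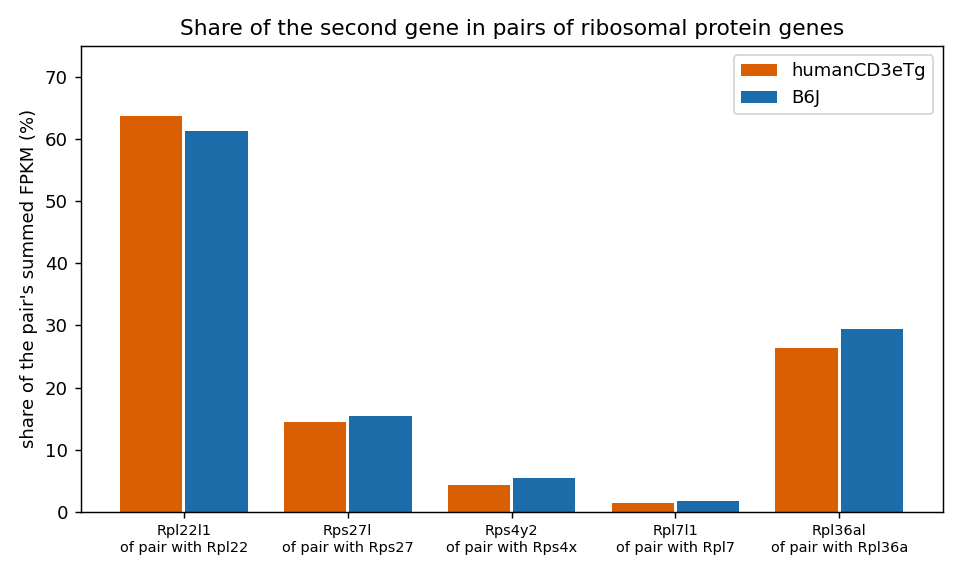
Share of each paralogue in the summed FPKM of the paralogue and its partner, in percent, for humanCD3eTg and B6J, in the 4 pairs used and in Rpl36al with Rpl36a. Rpl22l1 is the only paralogue above 50%, with 63.7% in humanCD3eTg and 61.2% in B6J.

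The start sites were examined for the TOP motif in RefSeq promoter windows of 300 bases (build GRCm38.p6), which were at hand for 63 of the 84 genes. A run of at least 5 C or T letters that opens with C within 10 bases of the first annotated start, on the strand of the gene, was found in 36 of 63 ribosomal protein genes (57.1%), against 30.7% of 26962 other genes. With any annotated start allowed, a run was found in 39 of 63 (61.9%), against 34.3% of other genes. Which start these cells used was not tested. The letters CCGGAAG, part of the binding motif of ETS-family factors such as GABPA, occurred on either strand in 39.7% of ribosomal protein promoters, against 9.05% of the others. GGGCGG, the core of the SP1 motif, occurred in 60.3% of ribosomal protein promoters, against 35.9%, and AAGATGG, the core of the YY1 motif, in 14.3%, against 6.46%. TATAAA, the TATA box, was the only one less frequent in ribosomal protein promoters, with 9.52%, against 14.2%. A match to letters is a description and not a bound site. The 40 bases around the start (30 before it and 10 from it, in the direction of the gene) are shown for genes with and without a run, in capitals where there is one; Rps10, Rpl28 and Rpl35 were chosen for their runs and Rps2, Rpsa, Rps6, Rpl22 and Rpl22l1 for the results above.
Rps10, chr17:27635235-27635274, minus: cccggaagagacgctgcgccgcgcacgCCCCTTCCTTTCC
Rpl35, chr2:39005122-39005161, minus: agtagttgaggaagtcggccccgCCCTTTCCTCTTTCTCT
Rpl28, chr7:4792935-4792974, plus: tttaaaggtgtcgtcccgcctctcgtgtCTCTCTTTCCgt
Rps6, chr4:86857358-86857397, minus: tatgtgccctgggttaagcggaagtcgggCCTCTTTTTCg
Rps2, chr17:24720033-24720072, plus: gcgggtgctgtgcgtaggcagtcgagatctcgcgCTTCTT
Rpl22l1, chr3:28805478-28805517, plus: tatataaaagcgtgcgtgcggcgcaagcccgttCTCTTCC
Rpl22, chr4:152325696-152325735, plus: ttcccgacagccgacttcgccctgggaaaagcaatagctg
Rpsa, chr9:120127736-120127775, plus: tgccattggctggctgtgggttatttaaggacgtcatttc

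Genes around ribosome production were compared with the ribosomal proteins through lists. Ribosomal proteins whose symbols the rule does not reach include Gnb2l1, the scaffold also called Rack1, which had 1315 FPKM in humanCD3eTg and 1168 FPKM in B6J (0.17). Translation factors and other genes with TOP mRNAs had a median of 0.10, with 13 of 14 higher in humanCD3eTg. All were of at least 100 FPKM, a level at which genes other than ribosomal protein genes had a median of 0.09, with 65.4% higher. Copies of ribosomal protein genes were not removed from those genes. The elongation factor Eef1a1 had 6317 FPKM in humanCD3eTg and 5509 FPKM in B6J (0.20), and Eef1g had 877 FPKM in humanCD3eTg and 738 FPKM in B6J (0.25). All 6 small nucleolar RNA host genes with TOP transcripts that were used were higher in humanCD3eTg, with a median of 0.17. Over all genes used, 44.6% were higher.

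The medians of the lists of genes that make or regulate ribosomes lay near that of all genes (-0.05, with 44.6% higher). These genes also had lower levels, with a median in humanCD3eTg of 24.6 FPKM for ribosome biogenesis against 327 FPKM for the TOP list. The part of level in these differences was not tested. Of 27 ribosome biogenesis genes, 10 were higher and 17 lower in humanCD3eTg, with a median of -0.05. Npm1, a nucleolar chaperone that is also on the TOP list, had 887 FPKM in humanCD3eTg and 789 FPKM in B6J (0.17), and the nucleolar GTPase Gnl3 had 49.6 FPKM in humanCD3eTg and 34.5 FPKM in B6J (0.51). The 75 mitochondrial ribosomal proteins, which form a separate ribosome, had a median of -0.07, with 31 higher and 44 lower. RNA polymerase I and its factors, which transcribe ribosomal RNA, had a median of 0.03, with 7 of 13 higher. Regulators in the MTOR and MYC pathways had a median of -0.07, with 6 of 14 higher; the GTPase Rheb, an activator of MTOR, had 82.5 FPKM in humanCD3eTg and 54.9 FPKM in B6J (0.58), while Rptor, a subunit of the MTOR complex, had 6.17 FPKM in humanCD3eTg and 9.26 FPKM in B6J (-0.52). The S6 kinases that the symbol rule leaves out had a median of -0.08 over 9 genes. Of these, Rps6ka3 had 34.1 FPKM in humanCD3eTg and 20.2 FPKM in B6J (0.73), and Rps6ka2 had 2.63 FPKM in humanCD3eTg and 4.07 FPKM in B6J (-0.48). No gene of these lists was 2-fold apart.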

How the data were processed

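Libraries were made with an Illumina TruSeq kit from total RNA in TRIzol, per the labels' protocols. The authors deposited 1 FPKM value per gene symbol and library. Per the submitters' processing notes, the build was mm9 and the tools were Cufflinks 2.1.1, TopHat2 2.0.8 and Bowtie2 2.1.0, with no roles stated. For annotation, strand use and fragments that match several genes, the settings were not given in the sources used here. FPKM cannot separate copies, overlapping or antisense genes with certainty. Absolute depth is not part of the deposited values. The most frequent ratio of humanCD3eTg over B6J among 2619 low genes, 1.27, puts B6J about 1.27-fold deeper.

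Groups follow the titles. Log2 ratios used FPKM + 1 and genes whose mean reached 1 FPKM; the pseudocount understates low genes. Values of at most 0.001 FPKM are called listed at 0. Members and lists were chosen with earlier results of these data known. Named genes were the P stalk, Rpsa and paralogues, the 6 highest and 3 lowest levels and the 6 highest and 6 lowest ratios of each subunit, genes listed at 0, and genes chosen for their role, 46 in all, and up to 4 genes with large ratios per list. Some genes that this rule names are not reported here. Shared windows, protein lengths (of the longest annotated coding sequence) and coding sequences came from GENCODE M21, and start windows from RefSeq GRCm38.p6. The ratio step was tested on simulated data. Alternatives were pseudocounts of 0.1 and 5, no filter, filters of 5 and 100 FPKM, 4 scalings, core genes only, genes listed at 0 left out and limits of 1.5-fold and 4-fold. Equal-sum scaling, the filter of 100 FPKM, sums with copies, the spread without Rps2 and the scalings of the comparison by protein length were added after the data were seen. Python 3.11.15, numpy 2.4.6, pandas 2.3.3 and scipy 1.17.1 were used.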

Additional observations from a re-analysis of the deposited data

How the results depend on the processing

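No paired analysis was possible because there is 1 library per group. For 147 of 166 alternative values the list medians kept their sign and moved by less than 0.1, counts stayed within 1.5 times, and shares of summed FPKM stayed close. The median of the large subunit lay between 0.09 and 0.19 and that of the small subunit between 0.06 and 0.17. A limit of 0.1 is nearly as large as these medians, so the small subunit's move from 0.12 to 0.06 counted as within it. Leaving out the 3 ribosomal protein genes listed at 0 could change no value, because they were already below the filter. The number of lower genes in the large subunit, 2 as reported, was 5 with no filter, 1 after median centring, for core genes only and at 100 FPKM or more, and 4 after quantile normalization and after equal-sum scaling. In the small subunit it was 5 as reported, 2 after median centring, and 8 after quantile normalization, after rescaling to the sum that leaves out haemoglobin and ribosomal protein genes (no mitochondrially encoded gene was found), and after equal-sum scaling. A limit of 1.5-fold counted 1 gene, Rps2. Ribosome biogenesis had a median of 0.000696 after centring and 0.022 after quantile normalization, which also gave 0.0017 for mitochondrial ribosomal proteins, 0.0072 for MTOR and MYC regulators and 0.057 for S6 kinases. The S6 kinases had 0.17 at 5 FPKM or more. RNA polymerase I and its factors had -0.0066 after equal-sum scaling and 0.21 at 100 FPKM or more, with fewer genes left. For the other moves the cause was not tested. The precision that depth gives to each value is unknown, because no fragment counts were used.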

Other observations

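Small nucleolar RNA genes lie in introns of many ribosomal protein genes, and 25 of them, in 19 host genes, are listed in the tables (names from RefSeq GRCm38.p6). Their FPKM did not follow their hosts. At 0 in both libraries were 7, at 0 only in humanCD3eTg were 5, at 0 only in B6J were 5, and 8 were above 0 in both. Snord58b, within Rpl17, was listed with 4959 FPKM in humanCD3eTg and at 0 in B6J. Snord72, within Rpl37, was listed at 0 in humanCD3eTg and with 4065 FPKM in B6J. Within Rpl13a, Snord34 had 1116 FPKM in humanCD3eTg and 1768 FPKM in B6J, while Snord32a was listed at 0 in humanCD3eTg and with 718 FPKM in B6J. An exact 0 can be a failed estimate. The number of fragments behind the large values is not known, so these can be uncertain too.

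Snora64, which lies within Rps2, had 535 FPKM in humanCD3eTg and 508 FPKM in B6J, without the lower level of Rps2 in humanCD3eTg. Snora78, also within Rps2, had 38.5 FPKM in humanCD3eTg and 26.1 FPKM in B6J. Both values carry the same uncertainty. Among the genes beside Rps2, Ndufb10, a subunit of respiratory complex I, had 179 FPKM in humanCD3eTg and 223 FPKM in B6J (log2 ratio -0.32). Tbl3, a ribosome biogenesis factor, had 14.1 FPKM in humanCD3eTg and 12.4 FPKM in B6J (0.17). Gfer had 10.6 FPKM in humanCD3eTg and 12.8 FPKM in B6J (-0.26). The other neighbours compared, Noxo1, Rnf151, Hs3st6 and Rpl3l, were low, with log2 ratios from -0.41 (Noxo1) to 1.31 (Rnf151).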
